A study of Mus musculus with 2 samples.

Results

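Polyamine metabolism was examined in the mouse uterus through 10 genes, chosen by symbol from the 55363 gene symbols of the data. Of these, 4 make polyamines (Odc1, Amd1, Srm and Sms), 3 acetylate or oxidise them (Sat1, Smox and Paox), and 3 set the amount of ornithine decarboxylase protein (Oaz1, Oaz2 and Azin1). All 10 were above 1 FPKM (mapped fragments, normalised for gene length and library size) in both libraries, and so all 10 were among the 16263 genes that reached 1 FPKM in at least one library.

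The samples were whole uterus of mixed cell types from females of 6 to 8 weeks, mated with fertile males and collected on gestational day 4. One library came from Mettl14 f/f uterus, the control, and the other from Mettl14 d/d uterus. In the usual notation these are floxed and deleted alleles of Mettl14, whose protein joins Mettl3 in the methyltransferase that places N6-methyladenosine on RNA. The Cre line behind d/d, the strain, and whether a library came from 1 animal or a pool were not given in the sources used here. With 1 library per genotype, replicate error is unknown, no test between genotypes was possible, and higher and lower compare these libraries only. Differences are log2 ratios of d/d over f/f on FPKM + 1, and a gene was called at a log2 ratio of at least 1 in size, which is 2-fold.

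Polyamines are small positively charged molecules that bind RNA and are needed for growth and translation. Ornithine decarboxylase makes putrescine, and the addition of aminopropyl groups from decarboxylated S-adenosylmethionine turns putrescine into spermidine and spermine. Cells hold the level within limits through antizymes, which bind ornithine decarboxylase and deliver it to the proteasome, and through acetylation, oxidation and export. In rodents, ornithine decarboxylase activity is known to rise in the uterus around implantation.

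The sequence at which antizyme synthesis is controlled is shown first, because it also shows how closely a pseudogene resembles Oaz1 and how the gene models treat the site. Translation of antizyme messenger RNA meets a stop codon early in the coding sequence, and polyamines favour a shift of the ribosome by a single base past it. The capitals mark the site, with the stop codon TGA inside it, and the lines are 5′ to 3′ from GENCODE M21 transcripts on GRCm38. The Oaz1 stretch is chr10:80828270-80828329 on the plus strand, the Oaz1-ps stretch is chr17:17345902-17345961 on the minus strand, and the Oaz2 stretch is chr9:65686247-65686306 on the plus strand.
Oaz1, unbroken model: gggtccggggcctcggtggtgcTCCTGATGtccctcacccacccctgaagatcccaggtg
Oaz1-ps: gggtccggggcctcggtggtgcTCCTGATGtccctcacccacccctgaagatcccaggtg
Oaz2, unbroken model: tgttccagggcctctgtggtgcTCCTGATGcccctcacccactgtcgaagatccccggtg
Oaz1, coding model: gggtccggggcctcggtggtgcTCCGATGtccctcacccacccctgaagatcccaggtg
Oaz2, coding model: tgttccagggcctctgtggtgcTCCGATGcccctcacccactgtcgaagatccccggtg
The first 3 lines hold the unbroken site, and Oaz1 and its processed pseudogene Oaz1-ps were identical over these 60 bases. The last 2 lines are coding models from which the annotation leaves out 1 base of the site, so that the printed reading frame stays open. Of the 7 Oaz1 transcripts, 4 have such a gap of 1 or 4 bases between exons, as do 3 of the 7 Oaz2 transcripts, and no transcript of the other 8 genes has a gap under 10 bases. Whether the authors' annotation held the same gaps is not stated in the labels.

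Amd1 messenger RNA carries a short upstream open reading frame through which polyamines are known to reduce its translation. It is shown, with the reading frame in capitals, because the same bases stand in Amd2, a second coding gene for the enzyme, to which fragments of Amd1 could be assigned. The Amd1 stretch is chr10:40302151-40302179 and the Amd2 stretch chr10:35711856-35711884, both on the minus strand.
Amd1: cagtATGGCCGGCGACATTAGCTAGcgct
Amd2: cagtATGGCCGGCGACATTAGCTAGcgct
The pseudogene Sms-ps matched Sms without a single difference over its whole length of 1101 bases. Its first 60 bases, at chrX:62776626-62776685 on the minus strand, are printed with the start codon of Sms in capitals.
Sms-ps: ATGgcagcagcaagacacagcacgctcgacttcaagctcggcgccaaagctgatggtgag

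Among the uterine libraries the polyamine genes differed less than the call rule asks. None of the 10 reached 2-fold, against 18.4% of the 16263 genes, and the median log2 ratio of the 10 was 0.13 beside -0.01 over all genes. The median size of the log2 ratio, whatever its sign, was 0.32 for the 10 genes and 0.41 for all genes. Ratios were above 0 for 6 genes and below 0 for 4. The spermine oxidase gene Smox was the highest at 0.98 and the spermidine synthase gene Srm the lowest at -0.88. At 1.5-fold these 2 genes alone would be called, against 36.6% of all genes, Smox on the higher side with 18.8% of them and Srm on the lower side with 17.8%.

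**Figure D1:**
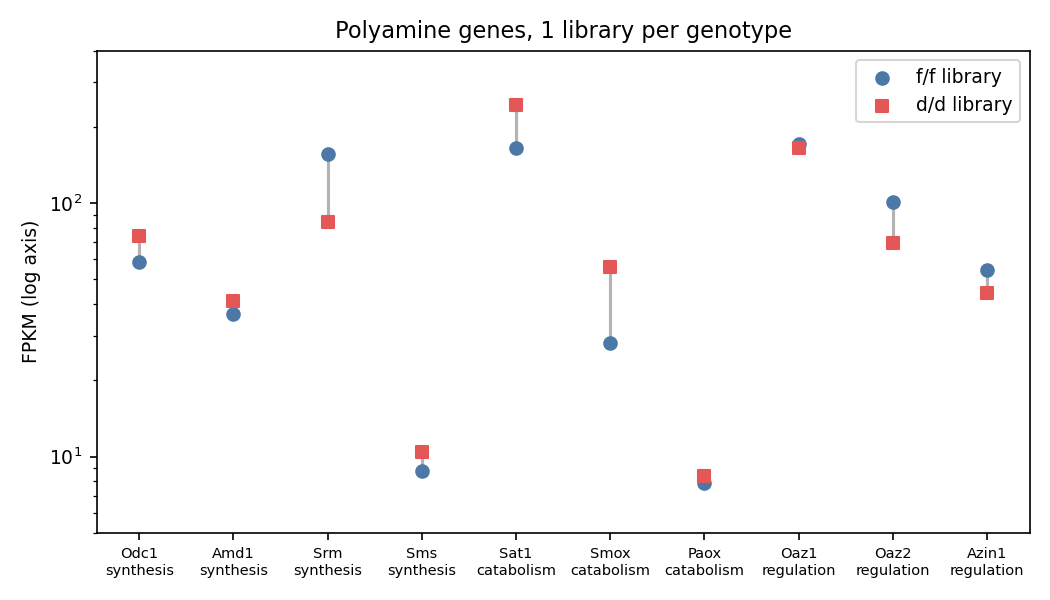
FPKM (log axis) of the 10 polyamine genes in the f/f library (circles) and the d/d library (squares), 1 library each, with a line joining the values of a gene. Smox and Sat1 were higher in d/d and Srm and Oaz2 lower, while Paox and Oaz1 nearly coincided.

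Of the synthetic enzymes, Srm had the largest difference and the other 3 had ratios above 0. Odc1 (ENSMUSG00000011179, chr12:17544794-17551505, plus strand) encodes ornithine decarboxylase, the first and tightly controlled step. It was 58.6 FPKM in f/f and 74.5 FPKM in d/d, which is 1.27-fold higher, a log2 ratio of 0.34. A log2 ratio at least this large in size was seen in 56.8% of all genes. Most genes thus differed at least as much.

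Amd1 (ENSMUSG00000075232, chr10:40287458-40302186, minus strand) encodes the decarboxylase that supplies the aminopropyl donor. Its level was 36.6 FPKM in f/f and 41.3 FPKM in d/d, a log2 ratio of 0.17. Sms (ENSMUSG00000071708, chrX:157443855-157492287, minus strand), which encodes spermine synthase, was 8.75 FPKM in f/f and 10.5 FPKM in d/d, a log2 ratio of 0.23. Both differences were smaller than those of most genes.

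Srm (ENSMUSG00000006442, chr4:148591503-148594993, plus strand), which encodes spermidine synthase, was 157 FPKM in f/f and 84.6 FPKM in d/d. The level was 1.86-fold lower, a log2 ratio of -0.88, and 21.9% of all genes had a ratio of at least this size. In rank among all genes Srm went from 895 in f/f to 1774 in d/d. The level of Srm was 17.9 times that of Sms in f/f, against 8.09 times in d/d. The ratio of Srm to Odc1 was 2.68 in f/f, against 1.14 in d/d. Both ratios use the levels as listed. With near-copies added by length, Sms was 16.9 FPKM in f/f and 19.8 FPKM in d/d, and Odc1 was 86.4 and 112 FPKM. Odc1 was then above Srm in d/d. Markers of proliferating cells were lower by value in the same library. All 8 proliferation markers had log2 ratios below 0, and 4 of them were lower past 2-fold, beside 8.28% of all genes. Their summed level was 464 FPKM in f/f and 231 FPKM in d/d. Their part in the Srm result was not tested.

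Catabolic genes were all higher in d/d by value, and none was called. Sat1 (ENSMUSG00000025283, chrX:155213132-155216449, minus strand) encodes the acetyltransferase that marks spermidine and spermine for oxidation or export. It was 165 FPKM in f/f and 244 FPKM in d/d, which is 1.47-fold higher, a log2 ratio of 0.56. With this Sat1, by the levels as listed, was the second highest of the 10 genes in f/f and the highest in d/d. With the near-copies described below added by length, Oaz1 was above Sat1 in both libraries. Oaz1 was then 515 FPKM in f/f and 521 FPKM in d/d, against 166 and 245 FPKM for Sat1.

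Smox (ENSMUSG00000027333, chr2:131491496-131525922, plus strand) encodes the oxidase that turns spermine directly into spermidine and releases hydrogen peroxide. It was 28.0 FPKM in f/f and 56.2 FPKM in d/d. The plain fold was just above 2, but on FPKM + 1 the log2 ratio was 0.98 and so just short of the rule. It passed with a pseudocount of 0.01 FPKM, at 1.00, and with trimmed-mean scaling of the libraries, at 1.02. A ratio of at least the reported size was seen in 19.1% of all genes.

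Paox (ENSMUSG00000025464, chr7:140115799-140137224, plus strand) encodes the peroxisomal oxidase of acetylated polyamines, the step after Sat1. It was 7.83 FPKM in f/f and 8.37 FPKM in d/d, a log2 ratio of 0.09, and was the least abundant of the 10 genes in both libraries. The ratio of Smox to Paox as listed was 3.58 in f/f against 6.71 in d/d. With near-copies added by length, Paox was 15.4 FPKM in f/f and 16.5 FPKM in d/d, so both ratios would be lower.

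Markers of several cell types differed beside the catabolic values, in both directions. Past 2-fold, 10.2% of all genes were higher and 8.28% lower. All 8 epithelial markers had log2 ratios above 0, 7 of them past 2-fold, with a summed level of 252 FPKM in f/f and 1922 FPKM in d/d. All 8 stromal markers were below 0, 5 past 2-fold, with sums of 3818 and 2175 FPKM. No marker of either list was at 0 in either library. Markers of uterine glands, which are also epithelium, mostly went the other way, with 4 of 6 lower past 2-fold. Their sums were 2269 FPKM in f/f and 25.4 FPKM in d/d. Of these markers, Spink1 and Prss28 were listed at 0 in d/d, and with Prss29 they passed the filter through f/f alone. Foxa2 and Sox9 were not called and differed in direction, at 5.11 FPKM in f/f and 3.56 FPKM in d/d, and at 8.19 and 11.0 FPKM. All 6 markers of natural killer cells were lower past 2-fold, with sums of 290 and 4.00 FPKM, and Gzmc was listed at 0 in d/d. All of them but Nkg7 passed the filter through f/f alone. Higher past 2-fold were 4 of 4 plasma cell markers (sums of 1933 and 5247 FPKM) and 3 of 4 T cell markers (9.97 and 54.02 FPKM). So were all 3 of the 5 fat cell markers that reached 1 FPKM (2.96 and 102 FPKM over the 5). Cd4 among the T cell markers, and Adipoq and Cfd among the fat cell markers, passed the filter through d/d alone. A marker that passes through 1 library alone can only be called toward that library. The part of these cell types in the values of the 10 genes was not tested, and in whole tissue fewer cells of a type and less RNA per cell cannot be told apart.

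The genes that control ornithine decarboxylase protein had ratios below 0. Oaz1 (ENSMUSG00000035242, chr10:80826656-80829290, plus strand), the main antizyme gene, was 171 FPKM in f/f and 165 FPKM in d/d. This log2 ratio of -0.05 was the smallest of the 10 genes in size. It turned to 0.02 when near-copies were added by length. Oaz2 (ENSMUSG00000040652, chr9:65668001-65690300, plus strand), a second antizyme gene, was 101 FPKM in f/f and 69.9 FPKM in d/d. Its level was 1.44-fold lower, a log2 ratio of -0.52. Azin1 (ENSMUSG00000037458, chr15:38487427-38519266, minus strand) encodes an inactive relative of ornithine decarboxylase that binds antizyme and frees the enzyme. It was 54.4 FPKM in f/f and 44.3 FPKM in d/d, a log2 ratio of -0.29.

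**Figure D2:**
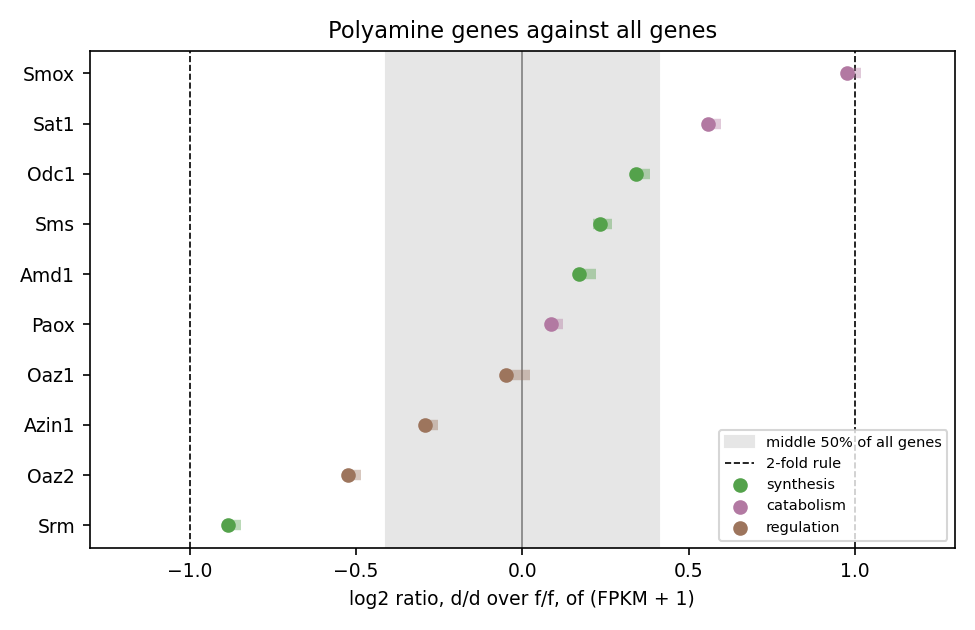
Log2 ratios of d/d over f/f on FPKM + 1 (horizontal) for the 10 genes, coloured by role, with shaded bars giving the range over the alternative settings. The grey band holds the middle 50% of all 16263 genes, from -0.41 to 0.41, and the dashed lines mark 2-fold. Srm, Oaz2, Sat1 and Smox lie outside the band, and only the bar of Smox touches a dashed line.

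The summed level of the 10 genes as listed was the same to within a few percent, and its make-up differed. It summed to 788 FPKM in f/f and 798 FPKM in d/d. The 4 synthetic genes made up 33.1% of it in f/f against 26.4% in d/d. The 3 catabolic genes made up 25.5% and 38.6%, and the 3 regulators 41.4% and 35.0%. The ratio of the catabolic to the synthetic sum was 0.771 in f/f against 1.46 in d/d, and Sat1 and Srm were the largest terms of these sums. The single ratio of Sat1 to Srm was 1.05 in f/f against 2.88 in d/d. The ratio of Odc1 to Oaz2 was 0.580 and 1.07, and that of Odc1 to Azin1 1.08 and 1.68. With 1 library per genotype it cannot be said which of these ratios differ beyond the spread between animals. The sums, shares and ratios use the levels as listed and were not recomputed with near-copies added. For Oaz1, Sms, Paox, Amd1 and Odc1 a large part of the fragments was listed under copies, as given below. With copies added by length, Oaz1 alone was 515 FPKM in f/f and 521 FPKM in d/d.

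The order of the levels was largely shared. In f/f it ran from Oaz1 through Sat1, Srm, Oaz2, Odc1, Azin1, Amd1, Smox and Sms to Paox. In d/d it ran from Sat1 through Oaz1, Srm, Odc1, Oaz2, Smox, Azin1, Amd1 and Sms to Paox. As listed, Oaz1 and Sat1 exchanged places, as did Odc1 and Oaz2, and Smox passed Azin1 and Amd1. Part of this depended on how fragments were shared with near-copies. With those added by length, Oaz1 was 515 FPKM in f/f and 521 FPKM in d/d. It then stood above Sat1, at 166 and 245 FPKM, in both libraries. In d/d Amd1 then stood above Smox, at 69.2 against 56.2 FPKM, and Odc1 above Srm, at 112 against 84.6 FPKM. Which neighbours in either order differ beyond their spread cannot be said.

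Several of the 10 levels depended on how fragments were shared with near-identical copies. Retrotransposed copies were sought as genes elsewhere in the genome with a processed pseudogene transcript or a coding transcript that holds at least 1% of the 50-base words of a member's longest coding transcript. Of 32 such copies, 13 were listed at 0 in both libraries and 13 reached 1 FPKM. Smox and Azin1 had no copy, the single copy of Srm was at 0, and the copies of Sat1 and Oaz2 were low beside the gene itself. The differences described for Smox, Srm, Sat1 and Oaz2 therefore rest on values that copies hardly touch.

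In 3 cases the copy was listed above the gene itself in both libraries. Oaz1-ps (chr17:17345456-17346140) was 538 FPKM in f/f and 556 FPKM in d/d, or 3.15 and 3.36 times Oaz1. Over its 685 bases it differed from the longest Oaz1 coding model by 1 mismatch and 4 gap bases, the size of the gap that this gene model has at the frameshift site. Sms-ps (chrX:62775585-62776685) was 27.4 FPKM in f/f and 31.6 FPKM in d/d, or 3.14 and 3.03 times Sms, with 0 mismatches. Gm19680 (chr1:31615149-31616661), a processed pseudogene, was 23.4 FPKM in f/f and 24.98 FPKM in d/d, or 2.99 and 2.98 times Paox, with 1357 identical bases and 1 mismatch. The ratio of the copy to the gene was thus nearly the same in f/f and d/d for all 3.

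Amd1 and Odc1 had several copies at lower levels. Amd2 (chr10:35708675-35711892), annotated as protein-coding, was 15.0 FPKM in f/f and 19.1 FPKM in d/d and was 99.6% identical to Amd1. The pseudogene Amd-ps3 was 21.7 and 25.2 FPKM, and Amd-ps4 was 2.30 and 2.56 FPKM. Of the 13 Odc1 copies, 5 reached 1 FPKM, led by Gm7993 (chr5:95974240-95975623) at 27.0 FPKM in f/f and 33.2 FPKM in d/d. With copies weighted by transcript length, the share of fragments listed under the gene itself was 67.8% in f/f against 66.6% in d/d for Odc1. It was 61.9% and 59.7% for Amd1, 51.7% and 52.7% for Sms, 50.7% and 50.8% for Paox, and 33.2% and 31.8% for Oaz1. Whether the copies are transcribed or hold fragments of the parent genes cannot be told apart from gene-level FPKM.

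The copies that reached 1 FPKM mostly differed between the libraries in the same direction as their parent genes. Their log2 ratios lay between -0.10 and 0.67, and none was called, beside 18.4% of all genes. In sign, 12 of 13 went with the parent gene. These are not 13 separate observations, since 5 were copies of Odc1 and 3 of Amd1. Where a copy holds fragments of its parent gene, a like sign follows from that alone. Oaz1-ps, at 0.05 beside -0.05 for Oaz1, was the exception in sign. In size, Oaz2-ps was at -0.10 beside -0.52 for Oaz2, and Gm17709 was at 0.67 beside 0.34 for Odc1. AW146154, a coding gene in which only a noncoding transcript shares sequence with Odc1 (11.2% of its words), was not counted as a copy. It was 3.53 FPKM in f/f and 2.77 FPKM in d/d, a log2 ratio of -0.26 and so opposite in sign to Odc1. With all copies added, the log2 ratio was 0.37 for Odc1, 0.22 for Amd1, 0.22 for Sms, 0.09 for Paox and 0.02 for Oaz1. The levels of these 5 genes depended on the copies more than their ratios did.

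**Figure D3:**
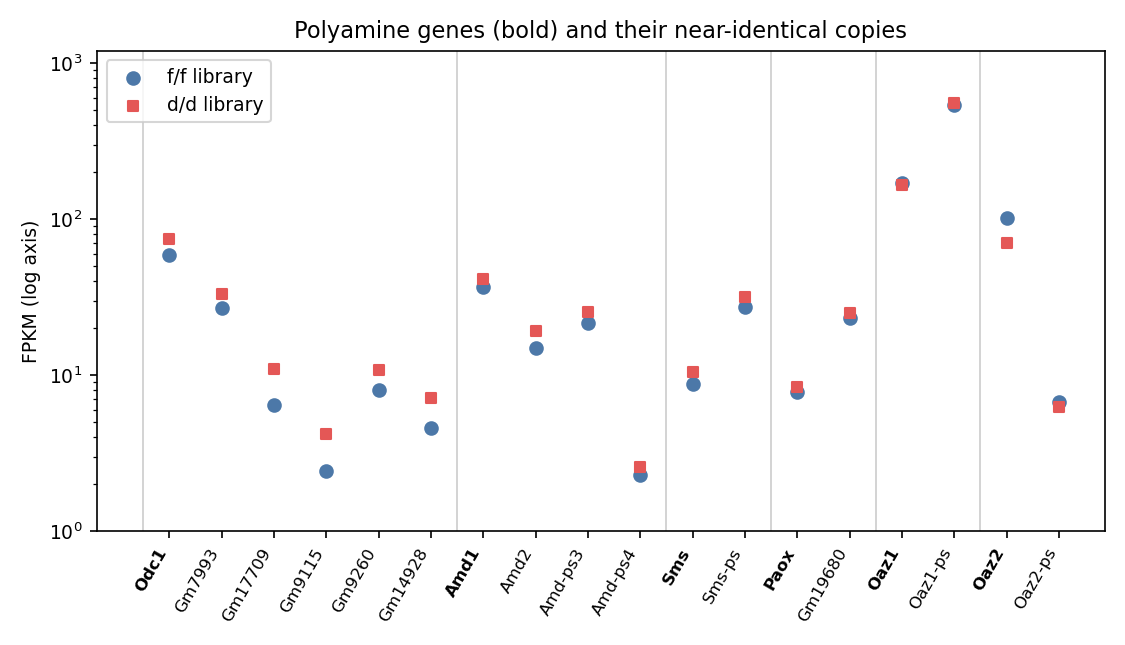
FPKM (log axis) in the f/f library (circles) and the d/d library (squares) of 6 polyamine genes, in bold, each followed by its near-identical copies at 1 FPKM or more. Oaz1-ps, Sms-ps and Gm19680 stand above Oaz1, Sms and Paox in both libraries.

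Overlapping genes touched few bases. Paox shares 142 of its 4907 exon bases with Echs1 on the opposite strand, which was 80.3 FPKM in f/f and 61.0 FPKM in d/d. Azin1 shares 358 of 6256 exon bases with the antisense gene Gm49077, at 0.386 FPKM in f/f and 0 FPKM in d/d. The strandedness of the libraries is not given, so fragments of these bases could not be assigned to a strand. Oaz1 hosts the microRNA gene Mir1982, which was listed at 0 in both libraries.

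Sequence features of the 10 genes were described for the base motif that the methyltransferase complex favours and for the binding motif of Myc. The letters GGACT, the commonest form of the N6-methyladenosine consensus, were counted on the sense strand of the longest coding transcript. They occurred in 8 of the 10 genes and in 92.0% of 13766 coding genes at 1 FPKM, with a median of 0.90 per 1000 bases in the 10 genes and 1.05 in all. Oaz2 held 5 in 1843 bases, a density above that of 96.4% of genes, and Amd1 held 7 in 3204 bases. Odc1 with 2208 bases and Smox with 2299 bases held none, and other forms of the consensus were not searched. A match is a run of letters and not a methylated site, and methylation was not measured here.

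Odc1 is a textbook target of Myc, which binds CACGTG. Promoter windows of 300 bases from RefSeq on GRCm38.p6, around the annotated start, were present for 8 of the 10 genes, with 10 windows in all. CACGTG, which reads the same on both strands, was in 1 of these windows, the upstream one of Sms (chrX:157492238-157492537, minus strand), and in 7.15% of 32851 windows. Srm and Azin1 have no window in the table. The Odc1 window covered only chr12:17544623-17544922, around the start of a gene that runs to 17551505, and held no match. Sequence outside the windows was not searched, so a match elsewhere in Odc1 could not be seen.

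Genes around the pathway included larger differences than the 10 core genes. Of 52 listed genes, 43 reached 1 FPKM, and 12 of these were called, 4 higher and 8 lower in d/d. This was 27.9% beside 18.4% of all genes, where higher calls were 10.2% and lower calls 8.28%, and the median log2 ratio was -0.08. The list was drawn from general knowledge of the pathway, but with earlier results of these data known. The shares of called genes in the list and in its roles therefore describe the chosen genes only. They cannot show an excess over all genes.

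Supply of ornithine and arginine held the largest difference. Of 9 genes at 1 FPKM, 1 was higher and 2 were lower. Arg1, the arginase that splits arginine into ornithine and urea, was 0.976 FPKM in f/f and 97.7 FPKM in d/d, a log2 ratio of 5.64, and passed the filter through d/d alone. Its sister Arg2 was 6.92 and 6.06 FPKM, not called and slightly the other way (Arg2 named after its values were seen). Asl, which makes arginine from argininosuccinate, was 71.8 FPKM in f/f and 17.6 FPKM in d/d. Gatm, which uses arginine for creatine synthesis, was 16.6 and 5.98 FPKM. The highest gene not called was Glul, glutamine synthetase, at 170 and 260 FPKM.

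Arg1 is also a gene of alternatively activated macrophages. All 6 macrophage markers had log2 ratios above 0, and 4 of them were higher past 2-fold, beside 10.2% of all genes. Their summed levels were 612 FPKM in f/f and 1465 FPKM in d/d, with none at 0. The epithelial markers given above moved the same way. The part of either cell type in the Arg1 value was not tested.

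On the methionine side, which supplies and salvages S-adenosylmethionine, 1 of 9 genes was called. Adi1, an enzyme of the methionine salvage cycle that reuses the by-product of spermidine and spermine synthesis, was 146 FPKM in f/f and 45.6 FPKM in d/d, a log2 ratio of -1.65. Mat2a, the synthetase of S-adenosylmethionine, was not called, at 63.7 and 92.9 FPKM.

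Among further antizymes, inhibitors and amine oxidases, 1 of 4 measured genes was called. Aoc1, the secreted oxidase of histamine and putrescine, was 7.08 FPKM in f/f and 16.4 FPKM in d/d, a log2 ratio of 1.11. Azin2, a second antizyme inhibitor, was 8.90 and 17.2 FPKM and not called at 0.87 (named after its values were seen). Aoc3, the most abundant of those not called, was 14.8 and 11.9 FPKM. The testis antizyme Oaz3 was listed at 0 in both libraries.

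Transport genes were called in 1 direction, with 4 of 11 lower and none higher, beside 8.28% lower and 10.2% higher of all genes. Slc7a2, a transporter of arginine, lysine and ornithine, was 14.3 FPKM in f/f and 2.73 FPKM in d/d, a log2 ratio of -2.04. Cav1 and Gpc1, which are linked to endocytic polyamine uptake in cultured cells, were 302 and 135 FPKM, and 54.9 and 26.5 FPKM. Atp13a4, a P5B-type ATPase related to polyamine exporters of the lysosome, was low at 2.16 and 0.496 FPKM and passed the filter through f/f alone. Gpc1, at -1.02, fell short of the rule with trimmed-mean scaling. Atp13a4, at -1.08, fell short with TPM and was no longer counted with the filter at 5 FPKM. Cav1 is also abundant in endothelium, whose 6 markers were all below 0, 4 past 2-fold, with sums of 320 FPKM in f/f and 146 FPKM in d/d, none at 0. The part of endothelium, or of any other cell type, in the Cav1 value was not tested. Slc3a2, the most abundant gene not called, was 116 and 88.2 FPKM.

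None of the 4 hypusine genes was called. Hypusine is made from spermidine on the translation factor eIF5A, whose gene Eif5a was 1040 FPKM in f/f and 859 FPKM in d/d, a log2 ratio of -0.27. The Myc network went both ways. Myc was 77.8 FPKM in f/f and 20.6 FPKM in d/d, a log2 ratio of -1.87. Its relatives Mycn and Mycl were higher, at 4.45 and 39.6 FPKM and at 3.78 and 33.7 FPKM. Their partner Max was not called, at 47.4 and 67.6 FPKM.

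**Figure D4:**
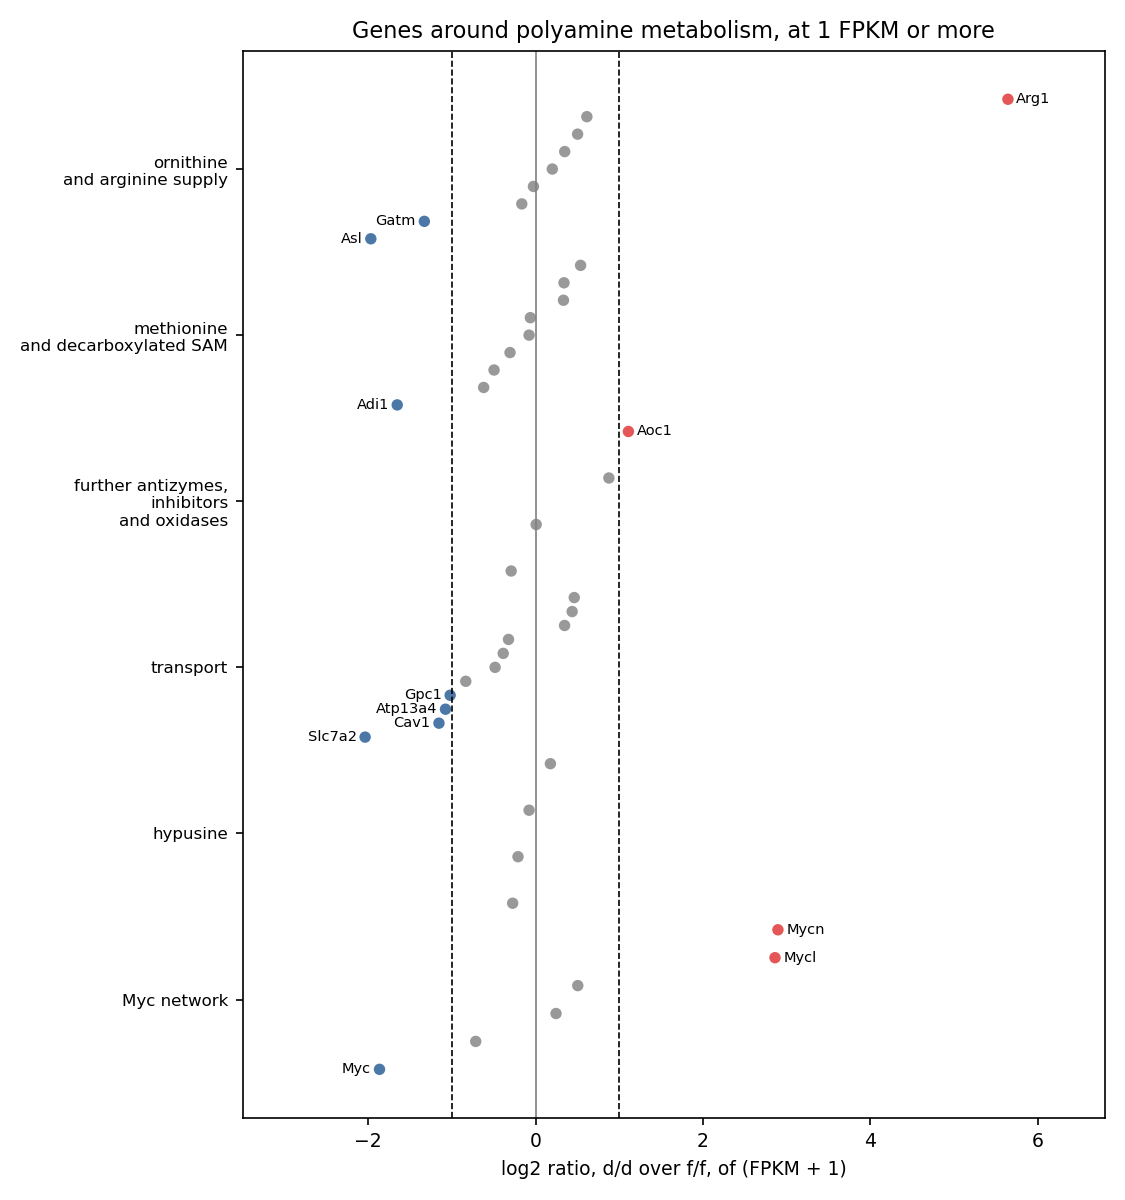
Log2 ratios of d/d over f/f on FPKM + 1 (horizontal) for the 43 genes around polyamine metabolism at 1 FPKM or more, by role; dashed lines mark 2-fold, and called genes are named, red for higher and blue for lower. Arg1 at 5.64 stands far to the right, and the 4 called transport genes are all to the left.

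In the whole data set Mettl14 was 13.6 FPKM in f/f and 3.21 FPKM in d/d, which is 4.25-fold lower. Uterine stromal markers Hoxa10 and Hoxa11 were 357 and 63.7 FPKM, and 193 and 40.3 FPKM. The stromal markers Dcn, Lum and Col1a1 were not called, at 911 and 811 FPKM, 224 and 200 FPKM, and 837 and 682 FPKM. None of 5 embryo markers exceeded 0.0307 FPKM in either library. Depth, estimated from the steps of the low values, was about 17800000 fragments in the f/f and 20900000 in the d/d library. At that depth between 579 (Sms in f/f) and 5914 (Sat1 in d/d) fragments stood behind each value of the 10 genes. Counting error was not computed. It would be small beside the ratios of Smox and Srm, but need not be beside the smallest ratios, those of Oaz1 and Paox. The spread between animals is unknown, and the fragments of genes with copies are shared as described above.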

How the data were processed

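The authors deposited 1 table per library, with a symbol, an Ensembl ID and an FPKM value for each of 55483 gene rows. Per the submitters' processing notes, HISAT2 2.2.1, Cufflinks 2.2.1 and the mouse build mm10 were used; the annotation release, the read length and the strandedness were not stated. Rows sharing a symbol were summed. Log2 ratios of d/d over f/f were taken on FPKM + 1, genes reaching 1 FPKM in either library were counted, and a log2 ratio of 1 was the call rule. With 1 library per genotype no test was run.

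Positions and transcripts are those of GENCODE M21 (GRCm38, equal to mm10), in which 55137 of the deposited IDs were found. Copies were found by shared 50-base words on both strands and aligned with Biopython 1.88. Depth was fitted on genes with a single transcript of at least 2000 bases, where 74.7% of 834 low f/f values and 70.5% of 867 low d/d values lay within 0.1 of a whole number of fragments. It uses full transcript length and is approximate. Alternatives changed the pseudocount, the filter, the scaling, the handling of shared symbols and of copies, and the fold rule.

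The 10 genes, the list of genes around the pathway and the marker lists were chosen with earlier results of these data known. Their shares of called genes, set beside those of all genes, are therefore descriptive. Named from the wider list are all called genes and, for each role, the gene not called with the highest mean FPKM. Exceptions are marked where they are named, apart from Oaz3, which is a further exception.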

Additional observations from a re-analysis of the deposited data

How the results depend on the processing

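The count of polyamine genes past 2-fold, 0 of 10 as reported, was 1 with a pseudocount of 0.01 FPKM and 1 with trimmed-mean scaling, in both cases Smox, and 2 with the 1.5-fold rule (Smox and Srm). It was 0 under each of the other alternatives, including the addition of all near-copies by length, an alternative chosen after seeing the data. No called gene changed sign under any alternative. Of the uncalled genes Oaz1 did, with a log2 ratio between -0.06 and 0.02, being above 0 under both additions of copies. The other 9 kept their sign, with Smox between 0.97 and 1.02, Srm between -0.90 and -0.84, Sat1 between 0.55 and 0.60, and Oaz2 between -0.54 and -0.48. Of the 12 called genes around the pathway, Atp13a4 was -0.95 with TPM and was left out by the filter at 5 FPKM, and Gpc1 was -0.98 with trimmed-mean scaling. Arg1 rose to 6.63 with a pseudocount of 0.01 FPKM, since it was near 1 FPKM in f/f. No paired analysis was possible because each genotype has 1 library. For the same reason no library could be left out.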

Other observations

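Of the 13 Odc1 copies, Gm7993 shared the most 50-base words with Odc1 (20.3%) and was also listed highest. Gm7278 shared 13.2% and was at 0.0265 FPKM in f/f and 0.0748 FPKM in d/d, while Gm14928 shared 6.25% and was at 4.57 and 7.16 FPKM. For Amd1, the copies sharing 6.62% or less, led by Amd-ps1, were listed at 0 in both libraries, and Amd-ps4, at 23.9%, was at 2.30 and 2.56 FPKM. Estimated fragments listed under Oaz1-ps numbered 6563 in f/f and 7957 in d/d, against 3263 and 3702 under Oaz1 itself.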
